A study of Rattus norvegicus with 12 samples.

Results

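Mucins, trefoil factors and the mucin-folding enzyme Agr2 were followed in cells dispersed from the rat cervix the day before expected birth and in the nonpregnant state. The 10 genes were Muc1, Muc4, Muc5ac, Muc5b, Muc16, Muc20, Tff1, Tff2, Tff3 and Agr2, and a probe was taken for a gene when its name in the scanner files equalled that symbol. This gave 1 probe for each of 8 of the 10 genes, out of 30367 probes and 26612 gene names on the array. Muc4 and Muc5b had no probe of that name. A probe named RGD1561983 is listed by RefSeq as a synonym of Muc5b, and a probe named ENSRNOT00000002421 is described in the files as a sialomucin complex fragment, Psmc being another RefSeq name of Muc4. Both are described below as the Muc5b probe and the Muc4 probe and enter no count of members. Adult female Sprague Dawley rats were either nonpregnant in proestrus (NP) or on day 21 after breeding (D21). The cervix of each rat was dispersed with collagenase. Cells of 3 rats in each state were frozen at once (whole), and cells of 3 other rats in each state first had macrophages (Mφs) removed with the ED1 antibody and magnetic beads (depleted). All 4 groups therefore consisted of cell suspensions, depleted cells were also handled for longer, and every array held RNA of 1 rat.

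Mucins are large glycoproteins that carry dense chains of O-linked sugars. The gel-forming mucins Muc5ac and Muc5b are secreted and joined by disulfide bonds into the polymer of mucus, whereas Muc1, Muc4, Muc16 and Muc20 span the cell membrane and coat the surface of the epithelium. Trefoil factors are small cysteine-rich peptides secreted with mucins that take part in epithelial repair, and Agr2 is a disulfide isomerase of the endoplasmic reticulum needed for the folding of gel-forming mucin in the intestine. In the cervix, mucus is made by columnar epithelium, and in pregnancy it forms a barrier between vagina and uterus.

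The array reads each gene through an oligonucleotide of 60 bases, and 5 of these are shown because the results below turn on them. Capitals mark TGC and TGT, the cysteine codons, in a reading frame without a stop codon that holds at least 2 of them.
Muc1: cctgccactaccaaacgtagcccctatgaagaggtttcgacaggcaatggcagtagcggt
Muc20: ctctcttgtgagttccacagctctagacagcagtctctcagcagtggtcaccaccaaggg
Muc5b probe: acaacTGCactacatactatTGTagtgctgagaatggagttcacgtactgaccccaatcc
Tff3: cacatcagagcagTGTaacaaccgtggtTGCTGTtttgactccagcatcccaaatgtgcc
Agr2: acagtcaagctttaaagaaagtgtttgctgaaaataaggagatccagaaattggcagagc
The Tff3 probe held 3 such codons and the Muc5b probe 2, in the most cysteine-rich open frame of each. The array files give positions in rn4. There the Muc1 probe lies at chr2:181402014-181403312 and the Agr2 probe at chr6:54709562-54710914, both spans longer than the probe itself. The Muc5b probe lies at chr1:201992377-201992436. The Muc20 probe at chr11:69814089-69814148 and the Muc4 probe at chr11:69830461-69830520 are neighbours, as are the Tff3 probe at chr20:9471911-9471970, the Tff2 probe at chr20:9492341-9492400 and the Tff1 probe at chr20:9526691-9526749. In the RefSeq table, too, Muc4 follows Muc20, Tff2 lies between Tff3 and Tff1, and Muc5b follows Muc5ac. Exon and UTR annotation of rn4 was not used here.

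Values are log2 of the scanner intensity over the 75th percentile of the array, so that 0 is the brightness of that percentile and a difference of 1 is a 2-fold change. Values of different probes are not set against each other. The 75th percentile ranged from 290 to 1171 intensity units, lowest in NP depleted rat 7 and NP whole rat 8, and the scanner software rated 44.9% to 61.7% of each array's probes as well above background. The 12 arrays came from 4 slides, with scans on 3 days. D21 whole and D21 depleted arrays shared no slide. A fit with slide as a block therefore compares those groups only through the NP arrays, and cannot separate slide from depletion directly. A gene was called in limma where the unadjusted p was below 0.01 and the change 2-fold or more, and Benjamini-Hochberg adjusted p-values over all genes tested are given beside it. The mean of the Mφ markers fell as labelled, from a mean log2 value of 1.71 in D21 whole to -3.20 in D21 depleted cells, and from 1.52 in NP whole to -3.65 in NP depleted cells, with 12 of 13 and 10 of 11 tested markers called higher in whole cells. Cd68, the antigen of the ED1 antibody, was not called, with whole minus depleted differences of -0.15 in D21 and 0.54 in NP rats. The depletion moved other cell types as well. The mean of 10 fibroblast markers was 3.68 in NP whole and -0.41 in NP depleted cells, against 3.64 in D21 whole and 2.45 in D21 depleted cells. The mean of the immediate-early genes was 0.60 in D21 whole and 3.50 in D21 depleted cells, and -0.10 and 2.67 in the NP groups. In RNA of mixed cells, fewer cells of a type and less RNA per cell cannot be told apart.

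Of the 8 members with a probe, 6 cleared the background on every array of 1 group or more and were tested in every comparison. In whole cervix, 2 of the 6 were called higher in D21 than in NP rats, Muc20 and Muc1, and 0 were called lower, where 5.39% of all genes tested were called higher and 3.09% lower. After adjustment Muc20 alone remained, against 3.94% of all genes higher. The 3 D21 rats lay above the 3 NP rats without overlap for 4 of the 6, a state that 20% of the genes tested reached. The members' median log2 fold change was 1.94, and that of all genes -0.08. In Mφ-depleted cells, where 5.44% of genes were called higher in D21 and 2.06% lower, 1 member was called higher, Tff3, and 0 lower. After adjustment 0 were called, against 3.62% of all genes higher. The median over members was 1.84 and over all genes 0.02. Between whole and depleted cells of D21 rats 0 members were called in limma, with 1 at an unadjusted p below 0.05, against 10% of all genes called higher in whole cells and 7.72% lower. Between whole and depleted cells of NP rats 1 member was called, Tff3, which was higher in whole cells, against 13.6% of all genes higher and 10.8% lower. It held after adjustment, as did 17% of all genes. The methods' t-test called 0 members in each of the 4 comparisons.

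**Figure D1:**
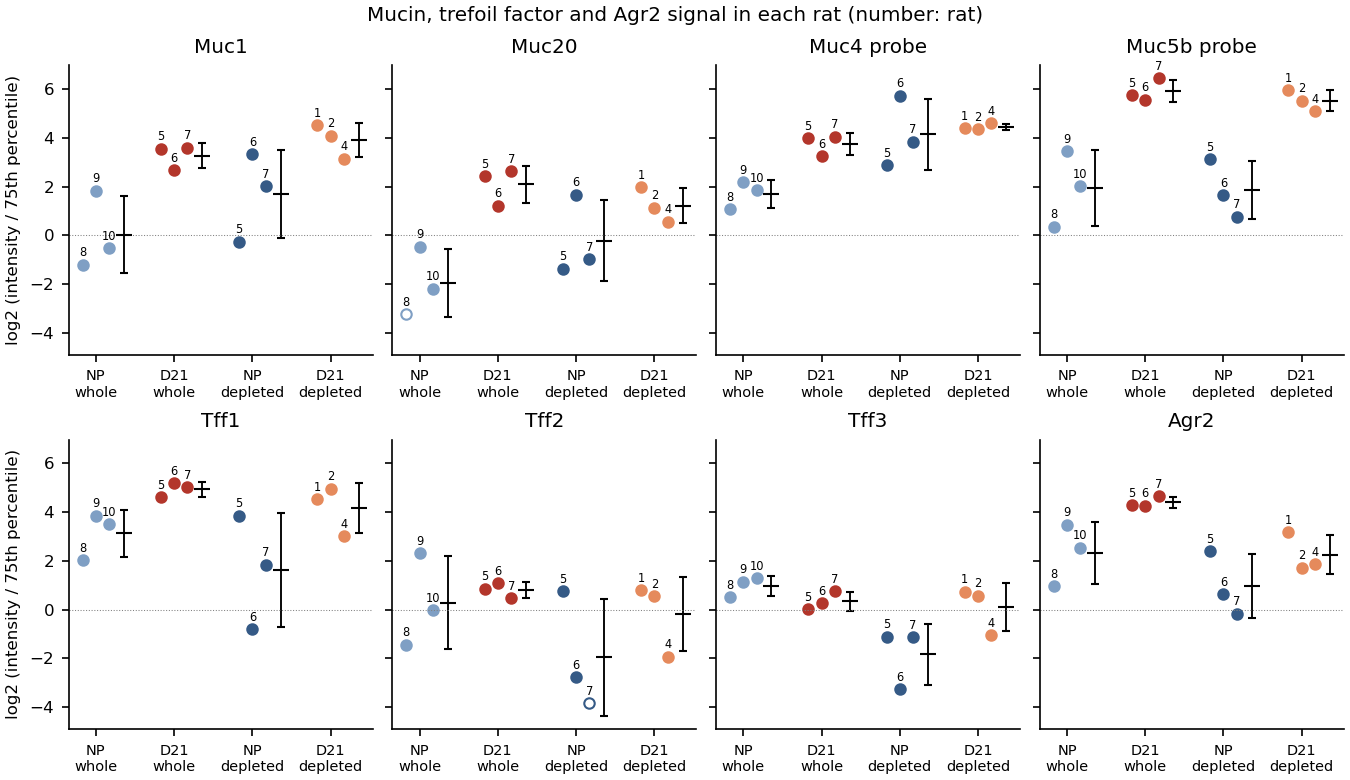
Log2 intensity over the 75th percentile of the array (y axis) in each of 4 groups for 6 members and the Muc4 and Muc5b probes. Each point is 1 rat with its number, open points were not well above background, and bars show mean ± SD of 3 rats. Muc1, Muc20 and the Muc4 and Muc5b probes lie higher in all 3 D21 whole rats than in the 3 NP whole rats, and for all 8 probes the SD is larger in both NP groups than in D21 whole rats.

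Expression of Muc1, a transmembrane mucin of glandular surfaces, was increased in the whole cervix of D21 rats. Its log2 values were 3.56, 2.66 and 3.60 in D21 whole rats 5, 6 and 7, and -1.20, 1.83 and -0.53 in NP whole rats 8, 9 and 10. The D21 rats were all above the NP rats, among which rat 9 was the highest. The log2 fold change was 3.24 (standard error 0.90), a 9.44-fold increase, with an adjusted p of 0.0596 in limma. In depleted cells Muc1 was 4.52, 4.09 and 3.15 in D21 rats 1, 2 and 4, and -0.26, 3.32 and 2.00 in NP rats 5, 6 and 7. NP rat 6 lay within the D21 range, and the log2 fold change of 2.23 (95% interval 0.26 to 4.20) was not called. From highest to lowest the group means were D21 depleted, D21 whole, NP depleted and NP whole. Whole and depleted cells, neighbours in that order within each state, did not differ beyond their spread: the log2 difference was -0.64 (95% interval -2.62 to 1.33) in D21 and -1.65 (-3.63 to 0.32) in NP rats.

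As each rat was left out, the log2 fold change of Muc1 in whole cervix stayed between 2.62 and 4.14. The call was lost without NP whole rat 8 (log2 fold change 2.62), NP whole rat 10 (2.96), D21 whole rat 5 (3.1) or D21 whole rat 7 (3.07). All D21 whole arrays shared a slide with NP whole rat 10, and within that slide the difference was 3.80. With slide as a block it was not called.

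Muc20, a transmembrane mucin encoded beside Muc4, had the largest increase with pregnancy among the members tested in whole cervix. Its log2 values were 2.43, 1.21 and 2.63 in D21 whole rats and -3.23, -0.47 and -2.18 in NP whole rats 8, 9 and 10, the first of which was not well above background. The groups did not overlap. The log2 fold change was 4.05 (standard error 0.84), 16.6-fold, with adjusted p = 0.0214 in limma. Within the slide shared by the D21 rats and NP rat 10 the difference was 4.27. Depleted cells of D21 rats gave 1.96, 1.13 and 0.57, and those of NP rats -1.37, 1.67 and -0.97. Here NP rat 6 was again as high as the D21 rats, and the difference of 1.44 (95% interval -0.40 to 3.29) was not called. The order of the group means was D21 whole, D21 depleted, NP depleted, NP whole, and the whole and depleted groups of a state did not differ beyond their spread (0.87 in D21, 95% interval -0.98 to 2.72; -1.74 in NP, -3.59 to 0.11).

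The Muc4 probe, for a transmembrane mucin that is also called the sialomucin complex, was high in D21 rats and in depleted NP rats. It read 3.98, 3.24 and 4.04 in D21 whole rats and 1.08, 2.18 and 1.86 in NP whole rats, a log2 difference of 2.05 (standard error 0.59, adjusted p = 0.0651 in limma). In depleted cells it read 4.40, 4.36 and 4.60 in D21 rats and 2.87, 5.72 and 3.85 in NP rats, where the log2 fold change of 0.31 (95% interval -0.97 to 1.58) was not called. In D21 rats whole minus depleted cells gave -0.70 (95% interval -1.98 to 0.59), the same direction as in NP rats, and it was not called. All 3 depleted NP rats lay above all 3 whole NP rats, as for 24% of all genes. Signal in whole relative to depleted NP cells changed by -2.44 on the log2 scale (standard error 0.58, adjusted p = 0.00827 in limma), a 5.42-fold difference. The columnar epithelial markers moved the same way: their mean was 2.42 in NP whole and 3.53 in NP depleted cells, with 5 of 10 called lower in whole cells, against 10.8% of all genes. So did the squamous markers, with means of 3.53 and 5.44 and 5 of 10 called lower. The immediate-early genes did as well, with means of -0.10 and 2.67 and 8 of 9 called lower. The part of these markers in the result was not tested. The increase in whole cervix was no longer called without NP whole rat 8 (1.73), NP whole rat 10 (2.12), D21 whole rat 5 (1.93) or D21 whole rat 7 (1.90), or with slide as a block (1.89). The whole-cervix call was lost with scan day as a block too (2.05). The NP difference was not called with slide (-2.41) or scan day (-2.33) as a block, with limma on the arrays compared, or by the methods' t-test.

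The Muc5b probe, the one reading here of a gel-forming mucin above background, was higher in D21 rats whether or not Mφs were present. Whole D21 rats gave 5.75, 5.56 and 6.44 and whole NP rats 0.36, 3.45 and 2.01. Depleted D21 rats gave 5.96, 5.52 and 5.08 and depleted NP rats 3.12, 1.65 and 0.76. In both preparations every D21 rat was above every NP rat, as for 9.54% of all genes in depleted cells. The log2 fold change was 3.98 (standard error 0.73, adjusted p = 0.0128 in limma) in whole and 3.67 (standard error 0.72, adjusted p = 0.0153 in limma) in depleted cells, 15.7-fold and 12.8-fold. In limma both held as each rat was left out (3.19 to 4.73 and 3.13 to 4.31), and the methods' t-test called neither. Removal of Mφs made a difference of 0.40 (95% interval -1.20 to 1.99) in D21 and 0.10 (-1.50 to 1.69) in NP rats. On 0 of the 12 arrays was the Muc5ac probe well above background, with log2 values from -7.63 to -4.38, and neither was the Muc16 probe, from -7.62 to -5.12. Both were left untested, and no change in them can be read.

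Among the trefoil factors, Tff1, a secreted peptide of mucous cells, was bright in every D21 rat and spread widely in NP rats. It read 4.60, 5.17 and 5.01 in D21 whole rats and 2.03, 3.85 and 3.51 in NP whole rats. The groups did not overlap, and the log2 fold change of 1.80 (95% interval -0.30 to 3.90) was not called, except by limma on the arrays of these groups alone. Depleted cells gave 4.54, 4.97 and 3.00 in D21 rats and 3.85, -0.79 and 1.84 in NP rats, a difference of 2.54 (95% interval 0.44 to 4.63, adjusted p = 0.157 in limma). The order of means was D21 whole, D21 depleted, NP whole, NP depleted. The whole and depleted groups did not differ beyond their spread in D21 (0.76, 95% interval -1.35 to 2.86) or NP rats (1.49, -0.61 to 3.59).

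Tff2, which in the stomach is secreted with gland mucin, overlapped between the groups in every comparison. Whole D21 rats gave 0.86, 1.08 and 0.47, and whole NP rats -1.44, 2.31 and -0.02. Depleted D21 rats gave 0.80, 0.55 and -1.94, and depleted NP rats 0.75, -2.77 and -3.84, the last of which was not well above background. D21 whole rats were the tightest group (SD 0.31) and depleted NP rats the widest (SD 2.40). The log2 fold change with pregnancy was 0.52 (95% interval -2.09 to 3.13) in whole and 1.76 (-0.85 to 4.36) in depleted cells. The one between whole and depleted cells was 1.00 (-1.61 to 3.61) in D21 and 2.24 (-0.37 to 4.85) in NP rats.

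Tff3, the trefoil peptide of goblet cells, was the one member called with Mφ removal. Its values in whole NP rats were 0.50, 1.14 and 1.28, and in depleted NP rats -1.11, -3.26 and -1.14. The groups did not overlap, as for 23% of all genes with whole cells higher, and the difference was 2.81 (standard error 0.60), 7.03-fold, with adjusted p = 0.00439 in limma. In D21 rats the values were 0.0048, 0.25 and 0.76 in whole and 0.74, 0.58 and -1.03 in depleted cells, a difference of 0.25 (95% interval -1.07 to 1.57). The test of the difference between these 2 effects gave -2.57 (standard error 0.85, adjusted p = 0.142 in limma), and it was not called. Depleted NP cells also had lower fibroblast and smooth muscle markers than whole NP cells, with 9 of the 9 fibroblast genes and 10 of the 10 smooth muscle genes tested called, against 13.6% of all genes. Depleted D21 cells had lower markers too, with 3 of 10 fibroblast and 7 of 10 smooth muscle genes called, against 10% of all genes. The smooth muscle mean was 3.80 in D21 whole and 1.36 in D21 depleted cells. The part of these markers in the result was not tested. With slide as a block the NP difference was 2.72 and was not called, and within the slide that held whole rats 8 and 9 and depleted rat 7 it was 1.96.

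With pregnancy, Tff3 was the one member called in depleted cells (log2 fold change 1.93, standard error 0.60, adjusted p = 0.100 in limma), although all 6 members had positive values there and those of Tff1 (2.54) and Muc1 (2.23) were larger. In whole cervix it was -0.64 (95% interval -1.96 to 0.68). The order of its group means was NP whole, D21 whole, D21 depleted, NP depleted, and the first 3 did not differ beyond their spread in the comparisons made. The call in depleted cells was lost without D21 rat 1 (1.61), D21 rat 2 (1.69) or NP rat 6 (1.22). It was lost too with slide as a block, and the 2 slides that held both groups gave differences of 0.10 and 2.76.

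Agr2, the folding enzyme, was highest in whole D21 cervix. It read 4.29, 4.26 and 4.66 in D21 whole rats and 0.95, 3.48 and 2.54 in NP whole rats, and the groups did not overlap. The log2 fold change was 2.08 (standard error 0.71), 4.23-fold, with adjusted p = 0.110 in limma, which missed the threshold. Without NP whole rat 9, the highest of its group, it was 2.66 and passed. Depleted D21 rats gave 3.19, 1.72 and 1.87 and depleted NP rats 2.40, 0.63 and -0.16, a difference of 1.30 (95% interval -0.26 to 2.86). In D21 rats Agr2 was the member nearest to a call with Mφ removal: all whole rats lay above all depleted rats, by 2.15 (standard error 0.71, adjusted p = 0.0510 in limma). Whole cells without overlap above depleted cells were found for 1 of the 6 members, and for 21.3% of all genes tested. Without D21 depleted rat 1 this difference was 2.61 and passed. It also passed with limma on the arrays compared, normexp background correction (2.35), quantile normalization (2.44) or the percentile over detected probes (2.33). With scan day as a block the difference was 3.06 and passed, and the methods' t-test did not call it. The 3 whole arrays and depleted rat 4 were scanned on 1 day, within which it was 2.53.

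**Figure D2:**
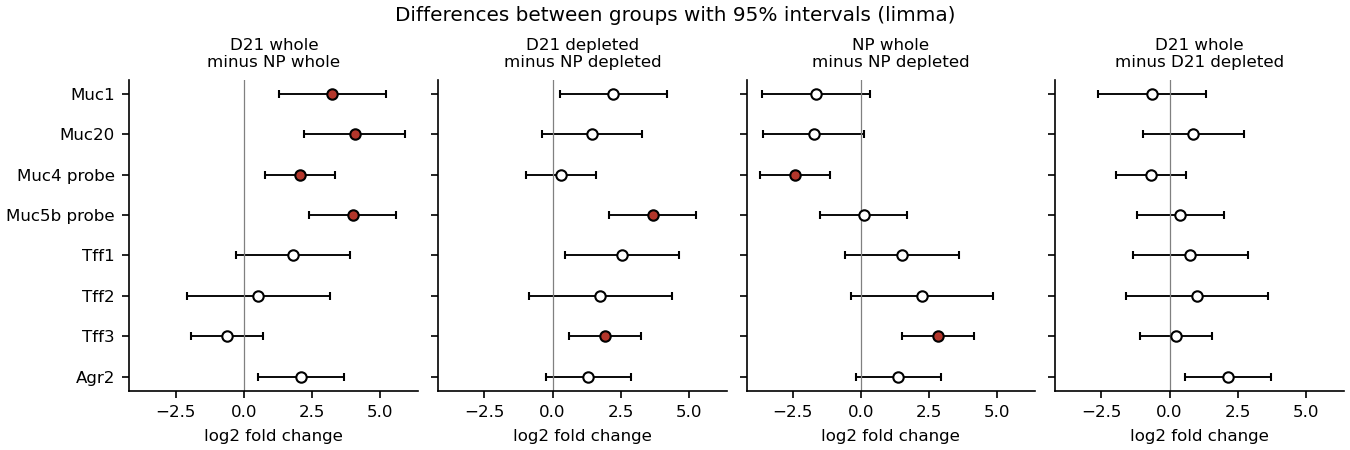
Log2 fold change (x axis) with its 95% interval from limma for 6 members and the Muc4 and Muc5b probes in 4 comparisons, each named as the first group minus the second; filled points met the threshold for a call. The Muc5b probe is filled in both comparisons of D21 with NP rats, at 3.98 and 3.67, and 0 points are filled between whole and depleted D21 cells.

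An interaction term tested, for the same 6 members, whether Mφ removal acted unequally in pregnant and NP animals. At an adjusted p below 0.05 in limma 0 were called, against 2.4% of all genes tested, and 1 had an unadjusted p below 0.05, Tff3. Muc20 came next, with an interaction of 2.61 (95% interval -0.02 to 5.24). The Muc4 probe gave 1.74 (-0.09 to 3.57) and the Muc5b probe 0.30 (-1.97 to 2.57).

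By SD, the 3 depleted NP rats differed from each other more than the rats of any other group did, for all but the Muc5b probe. Rat 6 had the highest Muc1 (3.32), Muc20 (1.67) and Muc4 probe (5.72) of its group, and the lowest Tff1 (-0.79) and Tff3 (-3.26). Rat 5 had the lowest Muc1 (-0.26), Muc20 (-1.37) and Muc4 probe (2.87), and the highest Tff1 (3.85), Tff2 (0.75), Tff3 (-1.11) and Agr2 (2.40). Both arrays lay on the same slide and were scanned on the same day. The mean of the columnar markers was 3.84 in rat 6 and 3.09 in rat 5, and that of the squamous markers 4.16 in rat 6 and 6.03 in rat 5. Among whole NP rats, rat 9 was the highest for Muc1, Muc20, Tff1, Tff2, Agr2 and the Muc4 and Muc5b probes. It had the highest columnar mean (2.81, against 1.97 in rat 8 and 2.46 in rat 10) and the lowest squamous mean (2.25, against 4.26 and 4.07). Rat 8 was the lowest of the group for all of these and for Tff3, and its array had the lowest 75th percentile of intensity of the group (309). The part of epithelial content or array brightness in these differences between rats was not tested.

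**Figure D3:**
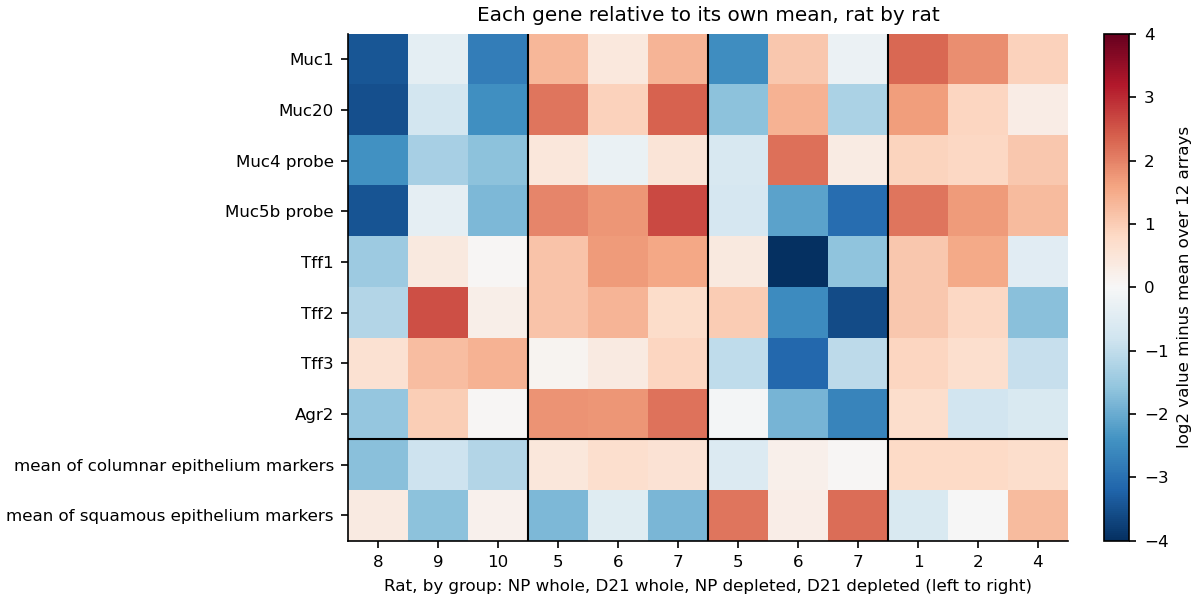
Log2 value of each gene, and mean log2 value of the columnar and squamous epithelial markers, minus its own mean over the 12 arrays (colour), with 1 column for each rat. Depleted NP rat 6 is above rat 5 for Muc1, Muc20 and the Muc4 probe and below it for Tff1, Tff2, Tff3 and Agr2, and NP whole rat 8 is blue for all but Tff3 and the squamous markers.

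As a description over the 12 arrays, which carry the differences between the 4 groups, Muc1 and Muc20 followed each other most closely among the members (Pearson's r 0.93). Over the same arrays Muc1 and Muc20 had r of 0.92 and 0.88 with the mean of 10 columnar markers, Krt7, Krt8, Krt18, Krt19, Epcam, Cldn3, Cldn4, Cldn7, Elf3 and Spint1. The r was 0.84 for the Muc4 probe, 0.76 for the Muc5b probe, 0.32 for Tff1, 0.28 for Agr2, 0.03 for Tff2 and -0.20 for Tff3. In NP whole cells the columnar mean ran from 1.97 to 2.81 while Muc1 ran from -1.20 to 1.83. Within D21 whole cells the order was not shared, since rat 6 had the highest columnar mean (4.30) and the lowest Muc1 (2.66), and rat 5 had the lowest columnar mean (4.09) with Muc1 at 3.56. In D21 whole against NP whole cervix 9 of these 10 markers were called higher, against 5.39% of all genes, with a median log2 fold change of 1.68. The part of epithelial content in the changes of Muc1 and Muc20 was not tested. Agr2 did not track the columnar markers between depleted and whole D21 cells: depleted D21 rats had the highest columnar means, from 4.36 to 4.44, with Agr2 between 1.72 and 3.19, and whole D21 rats had columnar means from 4.09 to 4.30 with Agr2 between 4.26 and 4.66. Between the depleted groups both were higher in D21 rats, with columnar means of 4.41 in D21 and 3.53 in NP cells and Agr2 means of 2.26 and 0.96.

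**Figure D4:**
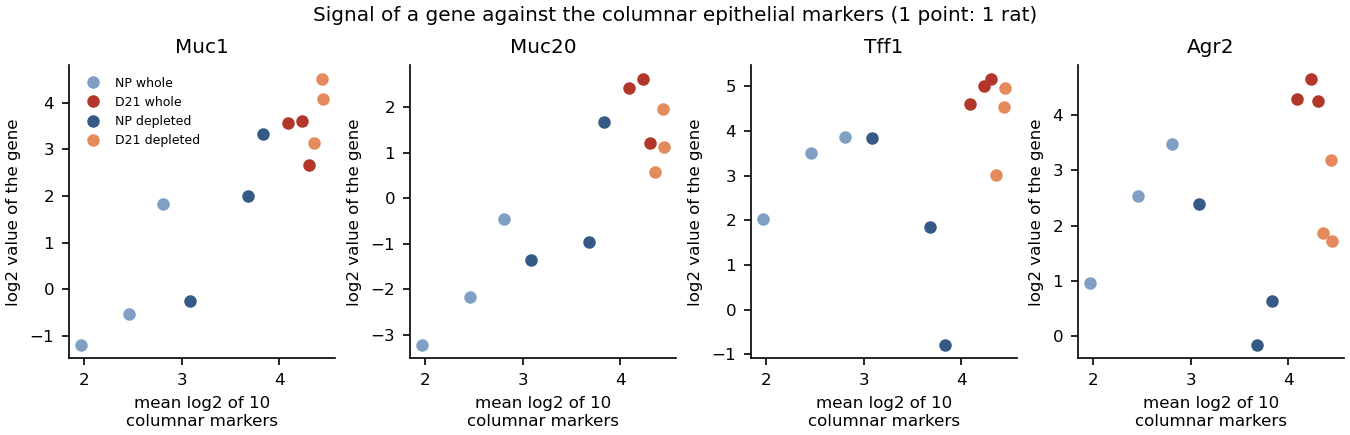
Log2 value of Muc1, Muc20, Tff1 and Agr2 (y axis) against the mean log2 value of 10 columnar epithelial markers (x axis), 1 point for each rat, coloured by group. Muc1 and Muc20 run from lower left to upper right, whereas Tff1 and Agr2 in depleted NP rats lie lowest at columnar means of 3.68 and 3.84.

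The genes most like each member over the 12 arrays were sought among all genes well above background on at least 9 of them, by Pearson correlation of log2 values and with no test. For Muc1 these were St6gal1 (0.97), a sialyltransferase, Tmprss2 (0.97), a membrane serine protease of epithelium, and Mgat4a (0.97), an N-glycan branching enzyme. For Muc20 they were RGD1561455 (0.98), Rhpn2 (0.98) and Slc25a29 (0.97). For Agr2 the first was Gfus (0.91), an enzyme of GDP-fucose synthesis, followed by Trim3 (0.91) and RGD1562612 (0.90). For Tff1 they were RGD1561582 (0.92), Adtrp (0.91) and Ang (0.89), an angiogenin ribonuclease, and for Tff2 the likeness was weaker, with Ednrb (0.86), Nudt14 (0.86) and Hbb-bs (0.84). For Tff3 they were Hspb2 (0.93), Tekt3 (0.93) and Higd1b (0.92). For the Muc5b probe they were Suox (0.96), Sgsm1 (0.96) and Tspan13 (0.96), the gene that follows Agr2 in the RefSeq table. The Muc4 probe was most like Mov10 (0.96), Tjp3 (0.96), a tight junction protein, and Gpr108 (0.96).

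Since Muc1 and Muc20 moved together, the 250 bases before their start sites are shown, from the RefSeq promoters of the GRCr8 build, which were at hand for 5 of the 10 genes. Muc1 lies at chr2:176933500-176933749 and Muc20 at chr11:81492641-81492890, both on the plus strand. Capitals mark, on either strand, the core promoter element TATAAA, the proximal promoter element CCAAT, or AGGAAGT, a core bound by ETS factors.
Muc1: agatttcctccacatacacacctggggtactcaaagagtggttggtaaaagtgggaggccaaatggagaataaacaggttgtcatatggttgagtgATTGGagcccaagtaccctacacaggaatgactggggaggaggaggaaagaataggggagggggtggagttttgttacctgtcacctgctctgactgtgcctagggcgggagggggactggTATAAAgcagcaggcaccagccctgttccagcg
Muc20: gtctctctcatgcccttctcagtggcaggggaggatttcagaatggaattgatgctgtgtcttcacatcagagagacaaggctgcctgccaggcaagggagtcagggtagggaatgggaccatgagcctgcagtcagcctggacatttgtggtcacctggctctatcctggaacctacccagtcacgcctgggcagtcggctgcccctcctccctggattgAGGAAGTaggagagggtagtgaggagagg
Of 33469 rat promoters of the same 300 bases, 14.2% held TATAAA, 37.5% CCAAT and 8.41% AGGAAGT on either strand. Muc1 held the first and second and Muc20 the third, so that the pair shared no motif of those searched. Muc4, Tff3 and Agr2 held TTCNNNGAA, the STAT palindrome, as did 8.87% of promoters. The palindromic oestrogen response element, searched on both strands and found in 0.0269% of promoters, was in 0 of the 5 windows. A match describes letters only.

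Genes of mucus and of ion and water transport were read from 5 lists. These were chosen with earlier results of these data known, so their counts and medians are no independent test. The paper itself lists Galnt6, Scgb3a1, Pigr and Gkn3 among its most increased genes in whole D21 cervix. Gkn3 was not matched to a probe by name here and enters no count. Of 24 enzymes of mucin O-glycosylation 22 were on the array and 17 could be tested, with a median log2 fold change of 1.34 in whole cervix. Of the 17, 8 were called higher in whole D21 cervix and 0 lower, against 5.39% and 3.09% of all genes. The other 9 were not called, and Galnt2 (-0.07), Galnt11 (-0.25) and Gcnt1 (-0.54), chosen after their values were seen, had negative values. The called genes included Galnt6 (3.56, adjusted p = 0.00246 in limma), which adds the first sugar to mucin, B3gnt3 (3.11, adjusted p = 0.0423), which extends core chains, and Fut2 (2.98, adjusted p = 0.0341), a fucosyltransferase of secreted mucin. In depleted cells 1 of 17 was called higher with pregnancy, Galnt4 (1.59, adjusted p = 0.0326), close to the 5.44% of all genes, and the median was 0.51. That call was lost with slide as a block (1.38) and by the methods' t-test. Between whole and depleted NP cells 4 of 14 were called lower in whole cells, among them Galnt6 (-2.29, adjusted p = 0.00147), Galnt12 (-1.77, adjusted p = 0.0194) and C1galt1 (-1.46, adjusted p = 0.00800), and 1 higher, Galnt11 (2.06, adjusted p = 0.00208). Of all genes tested 10.8% were called lower there and 13.6% higher. The count lower was 2 with slide or with scan day as a block, which ended the calls of Galnt12 (-1.42 and -1.43) and C1galt1 (-0.91 and -0.93), and the methods' t-test called 0 of the list. Galnt12 was also lost without NP depleted rat 6 (-1.29) or NP whole rat 8 (-1.26) or 10 (-1.77). Galnt6 was the one gene of this list whose effect of Mφ removal differed between D21 and NP rats (interaction 3.31, adjusted p = 0.0158). In D21 rats 4 of 18, against 10% of all genes, were called higher in whole than in depleted cells, among them Galnt10 (2.42), Galnt7 (2.15) and Galnt11 (1.23), and 0 with slide as a block. With pregnancy in whole cervix the methods' t-test called 4 of the 17, and limma with slide as a block also called 4, without Fut2 (3.12). B3gnt3 was not called without NP whole rat 8 (2.51).

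Regulators of mucous cells and proteins secreted with mucus, a list chosen in the same way, had a median of 2.73 in whole cervix. Of its 22 genes 21 were matched by name, all but Gkn3. In whole cervix 9 of the 12 tested were called higher in D21 and 0 lower, against 5.39% and 3.09% of all genes. Fcgbp, a protein that is bound into mucus gel, was higher by 6.00 (adjusted p = 0.00190 in limma) and Clca1, a metalloprotease secreted by goblet cells, by 4.40 (adjusted p = 0.0395). Scgb3a1, a secretoglobin, was well above background on 0 of the 3 NP whole arrays and D21 whole cells exceeded them at least 18.1-fold. It passed the filter through the D21 rats alone, so its call, included in the 9, is no independent support. The bound sets the mean of the brighter group against the dimmest signal that still cleared the background on the other group's arrays. In depleted cells 6 of 13 were called higher and 0 lower, against 5.44% and 2.06% of all genes, with a median of 1.24. There Fcgbp was higher by 4.08 (adjusted p = 0.00421 in limma), Clca1 by 3.40 (adjusted p = 0.109 in limma) and Scgb3a1 by at least 4.72-fold. Scgb3a1, included in the 6, was well above background on 0 of the 3 NP depleted arrays and again passed the filter through D21 alone. The methods' t-test did not call it in depleted cells. Whole D21 cells exceeded depleted D21 cells in Dmbt1, a mucosal scavenger protein (2.49), and Scgb3a1 (2.33), 2 of 13 against 10% of all genes. The methods' t-test did not call Dmbt1, nor did limma when slide was a block (0.72). Scgb3a1 was not called when any 1 of D21 depleted rats 1, 2 and 4 or D21 whole rats 5, 6 and 7 was left out (2.15 to 2.52). Whole NP cells exceeded depleted NP cells in Xbp1, a transcription factor of secretory cells (1.25), 1 of 10 against 13.6% of all genes, and this call was lost with slide (1.12) or scan day (1.06) as a block, with normexp (0.91), with limma on the arrays compared, by the methods' t-test, and without any 1 of NP depleted rats 5 and 6 and NP whole rats 8, 9 and 10 (1.03 to 1.31). In whole cervix the methods' t-test called 3 of the 12 and limma without NP whole rat 8 called 5. Clca1 was not called without NP whole rat 8 (3.68) or 10 (3.64) in whole cells, and in depleted cells without any 1 of NP rats 5 and 7 and D21 rats 1, 2 and 4 (2.78 to 3.81). The call of Clca1 in depleted cells was also lost with normexp (3.02), quantile normalization (3.14) or the percentile over detected probes (3.24). It was lost as well with no filter on background, with slide or scan day as a block (3.28) and by the methods' t-test. In depleted cells 3 of the list were called without NP rat 5, and 2 without D21 rat 1 or D21 rat 2.

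Of the 12 tested genes of general disulfide folding, 0 were called with pregnancy in limma and by the methods' t-test in whole or depleted cells, where 3 and 1 had an unadjusted p below 0.05 in limma. Of all genes 5.39% were called higher in whole and 5.44% in depleted cells, and the medians of the list were 0.06 and 0.23. With Mφ removal Txndc12, Pdia3 and Pdia6 were higher in whole than in depleted D21 cells (1.64, 1.36 and 1.11), and Txndc12, Pdia6 and Pdia4 in NP cells (1.46, 1.40 and 1.29). These were 3 of 12 in each state, against 10% of all genes in D21 and 13.6% in NP cells. With slide as a block all 3 calls in D21 cells were lost (1.35, 1.01 and 0.80), as were those of Pdia6 (1.25) and Pdia4 (0.78) in NP cells. Whole and depleted D21 arrays shared no slide, so the D21 values of that fit are indirect. Scan day as a block also ended the calls of Pdia3 (0.99) and Pdia6 (1.14) in D21 and of Pdia6 (1.36) and Pdia4 (0.79) in NP cells, and Pdia6 in D21 cells was lost without any 1 of depleted rats 1, 2 and 4 and whole rats 5 and 7 (0.99 to 1.17), and Pdia4 in NP cells without depleted rat 6 (1.00) or whole rat 8 (1.13). Of the 13 tested genes of ion and water transport 1 was called higher with pregnancy, Scnn1a, a subunit of the epithelial sodium channel, in whole (2.35, adjusted p = 0.00394 in limma) and in depleted cells (1.03, adjusted p = 0.0786). The count is close to the shares of all genes, 5.39% and 5.44%. The call of Scnn1a in depleted cells was lost without NP rat 6 or 7 or D21 rat 1 or 4 (0.93 to 1.04), and when slide or scan day was a block (1.03). It was also lost with normexp (0.82), quantile normalization (0.99), the percentile over detected probes (0.87), array weights (0.93) or no filter on background. By the methods' t-test Scnn1a was not called in whole cells. In NP rats Scnn1a (-1.35) and Slc26a6 (-1.60), an anion exchanger, were lower in whole than in depleted cells, 2 of 12 tested against 10.8% of all genes. The call of Scnn1a there was lost with slide as a block (-1.34) or normexp (-0.76). Of 12 other mucins 7 were on the array, and 2 of these could be tested, Cd164 and Emcn. Emcn, a sialomucin of endothelium, was higher in whole than in depleted cells by 1.70 in D21 and 1.86 in NP rats, against 10% and 13.6% of all genes called higher. The D21 call was lost with slide as a block (1.17) and with normexp (0.65). With pregnancy 0 of the 2 were called in limma or by the methods' t-test, with 1 in whole cells, Cd164, at an unadjusted p below 0.05. Muc2, Muc3a, Muc13 and Muc19, named here after their values were seen, were well above background on 0 of 12 arrays.

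**Figure D5:**
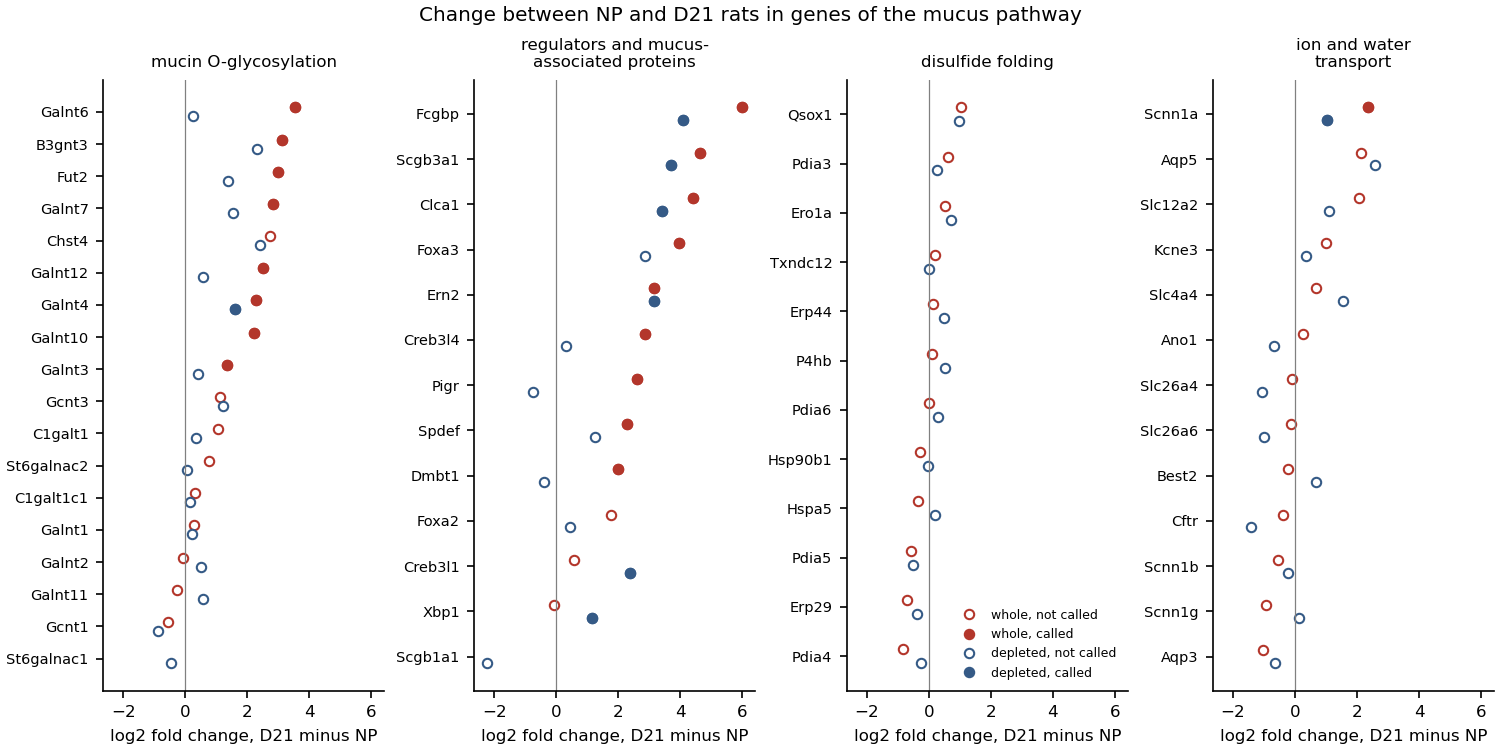
Log2 fold change of D21 minus NP rats (x axis) for the tested genes of 4 lists, in whole (red) and Mφ-depleted cells (blue); filled points met the threshold for a call in limma. Filled red points are 8 of 17 in mucin O-glycosylation and 9 of 12 in the regulators and mucus-associated proteins, and 0 in disulfide folding.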

How the data were processed

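RNA of dispersed cervix cells from 12 rats, 3 in each of 4 groups taken from the labels, was hybridised to 1-colour Agilent arrays. The authors deposited the processed intensity of each spot as Feature Extraction 9.5.3.1 wrote it, background-subtracted and without normalization between arrays. They also deposited a table of ratio values, each intensity over the 75th percentile of its array. Spots of a probe were averaged, control and outlier spots left out, and the log2 75th percentile of the array subtracted. Accessions were matched to RefSeq symbols for 17328 of 30367 probes (57.1%), and the brightest probe of a gene was used. A gene entered a test when it cleared the background on every array of 1 of the groups compared. The test was limma 3.58.1 (R 4.3.3), with lmFit and eBayes on 4 group means, so that all 12 arrays shared 1 estimate of the spread. Tables and figures were made in Python 3.11.15 with pandas 2.3.3, numpy 2.4.6, scipy 1.17.1 and matplotlib 3.10.9. The limma step was tested on simulated data. Calls use the threshold of the methods, and the methods' t-test was run beside it.

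Members and gene lists were chosen with earlier results of these data known. Named were all members, from each list and comparison the 3 called genes that rose most and the 3 that fell most, and the 3 genes most like each member. The lists were other mucins, mucin O-glycosylation, mucous cell regulators and mucus-associated proteins, disulfide folding, and ion and water transport, with marker lists for columnar and squamous epithelium, macrophage, fibroblast, smooth muscle, endothelium, neutrophil and immediate-early genes. Between D21 and NP whole cervix, limma called 0 of 10 endothelial, 0 of 3 neutrophil and 1 of 9 squamous genes tested (Krt4, lower). At an unadjusted p below 0.05 there were 3, 1 and 2, and the methods' t-test called 1, 0 and 1. In the same comparison limma called 4 of 10 smooth muscle genes lower and 2 of 8 immediate-early genes higher. It called 1 of 13 macrophage genes higher and 0 of 10 fibroblast genes, with 0 fibroblast genes at an unadjusted p below 0.05. Of all genes 5.39% were called higher and 3.09% lower. Precision is limited by the number of arrays. Alternatives covered the normalization, background correction, filter, slide and scan day as blocks, array weights, and each rat left out.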

Additional observations from a re-analysis of the deposited data

Results flagged for a closer look

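Galnt6, a transferase that starts mucin O-glycans, differed in its change with Mφ removal between D21 and NP rats by the interaction test, with a log2 value of 3.31 (standard error 0.58, adjusted p = 0.0158 in limma). Whole minus depleted cells gave 1.02 in D21 and -2.29 in NP rats. The call was lost with slide as a block (3.43), with no filter on background (3.31) and without D21 whole rat 7 (3.12).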

How the results depend on the processing

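The count of members called higher in D21 whole cervix was 2, and it was 1 with slide as a block, with a filter on every array compared or at an adjusted p below 0.05, 0 by the methods' t-test before and after adjustment, 3 with limma on the arrays of the groups compared, which added Tff1, or with array weights, which added Agr2, and 1 to 3 as each rat was left out. In depleted cells the count of 1 became 0 with limma on the arrays of the groups compared, the methods' t-test before and after adjustment, quantile normalization, no filter on background, slide or scan day as a block or the adjusted threshold, 2 with array weights, and 0 to 2 as each rat was left out. Between whole and depleted D21 cells the count of 0 became 1 with limma on the arrays compared, normexp, quantile normalization, the percentile over detected probes or scan day as a block, and was 0 to 1 as rats were left out. Between whole and depleted NP cells the count of 1 higher became 0 by the methods' t-test before and after adjustment and with slide as a block, and 1 to 3 as rats were left out, with 0 to 1 lower. Without NP depleted rat 5, Muc1 (-2.63), Tff1 (2.60) and Tff2 (3.59) were called there. The interaction count of 0 lower became 1 with array weights, and 0 to 1 as rats were left out. The cause of these changes was not tested.

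Reversed were Tff2 between D21 and NP whole cells without NP whole rat 8 (leaving a rat out gave -0.34 to 1.53); the Muc4 probe in depleted cells with normexp (-0.045) and without NP depleted rat 5 (-0.33 to 1.09); Muc1 between whole and depleted D21 cells with slide as a block (0.57), Tff3 there with normexp (-0.23), with array weights (-0.18) and without D21 depleted rat 4 (-0.32), and Galnt11 there with slide as a block (-0.10). The Muc5b probe between whole and depleted NP cells reversed with array weights (-0.66) and without NP depleted rat 6 (-0.0018), NP depleted rat 7 (-0.45) or NP whole rat 9 (-0.66; highest 0.89). The interaction of Tff1 reversed without NP depleted rat 6 (-1.85 to 0.48), and that of the Muc5b probe without NP depleted rat 5 (-0.34) or NP whole rat 8 (-0.49; highest 1.06). Each of these was uncalled in both fits except Galnt11. Of 888 values of single genes under the other alternatives 782 kept direction and side of the threshold, and of 492 with a rat left out 424 did. Quantile normalization moved the median of all genes by 0.17, 0.11, -0.14 and -0.21 in the comparisons of D21 with NP whole, D21 with NP depleted, D21 whole with depleted and NP whole with depleted cells, and the percentile over detected probes moved it by -0.16 in the second and 0.19 in the third. No paired analysis was possible because each group holds different rats and groups that were compared share no rat numbers. With 3 rats a group small changes may be missed, and Muc5ac and Muc16, with signal not well above background, gave no test.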
